A study of Mus musculus with 30 samples.

Results

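Cytochrome P450 genes were followed through 5 tissues of the mouse. The genes were taken by symbol: Cyp, a family number, a subfamily letter and a gene number, with at least 10 counts summed over the 30 libraries of the series. The rule gave 91 genes in 38 subfamilies out of 48709 genes in the tables. Just inside the count minimum were Cyp4f40 with 12 counts, Cyp2c65 with 25 and Cyp2d34 with 41. Outside it were Cyp4a29 with 2 counts and Cyp2w1 and Cyp2c66 with 0. A further 5 P450 genes whose symbols do not have this form were left out: Cyp51, Cyp3a41a, Cyp3a41b, Cyp4a12a and Cyp4a12b.

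RNA-seq was made from brain, kidney, liver, quadriceps femoris muscle and spleen of adult C57BL/6 mice. Each tissue had 3 wild-type (WT) libraries, labelled control, and 3 libraries from mice with Ctcf haploinsufficiency (Ctcf+/-, called heterozygous below). CTCF holds DNA through its zinc fingers and shapes chromatin loops. How the allele was made, the sex of the mice and whether libraries of the same number in different tissues came from 1 mouse are not given in the labels, so p-values measure the spread between these libraries.

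P450 enzymes are heme proteins that insert an oxygen atom into their substrates with electrons from a reductase or a ferredoxin. Families 1 to 3 oxidise drugs, pollutants and many lipids, mainly in liver, and their genes lie in clusters of close relatives. Family 4 hydroxylates fatty acids and eicosanoids, and the higher families carry single steps of bile acid, steroid hormone, vitamin D and retinoic acid metabolism.

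Libraries held 49.8 M to 131.6 M counts. Ctcf itself was lower in heterozygous libraries of every tissue, by 0.57 to 0.70 on the log2 scale, with no overlap between the groups. It passed an adjusted p of 0.05 (edgeR quasi-likelihood test) in brain only, at 0.0259. Some libraries held transcripts of other organs, and these moved with several P450 genes. The summed level of 8 hepatocyte markers was 35.1 to 44.9 CPM (counts per 1 M counts of the library) in WT spleen and 0.140 to 0.344 in heterozygous spleen. The sum of 8 kidney epithelium markers was 0.382 to 0.656 CPM in WT spleen and 11.7 to 23.9 in heterozygous spleen, and in muscle it was 9.85 to 71.2 in WT and 0.108 to 5.53 in heterozygous libraries. The sum of 6 adrenal markers in kidney was 6.43 to 9.62 CPM in WT and 7.88, 19.6 and 31.3 in heterozygous libraries 1, 2 and 3, and that of the hepatocyte markers there was 202 to 268 CPM in WT and 309, 222 and 507 in heterozygous libraries. Results that touch these libraries are given with those values.

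The Cyp3a genes and Cyp2e1 turn up in most of the comparisons below, so their start regions are shown first. They are the 250 bases before the transcription start from RefSeq on GRCm38.p6, which covered 70 of the 91 genes. Cyp3a11, the mouse relative of the main human drug-oxidising CYP3A enzyme, was at chr5:145879855-145880104, minus strand. Cyp3a16, at chr5:145469724-145469973, and Cyp3a44, at chr5:145805875-145806124, lie on the same strand of the same cluster. Capitals in the Cyp3a16 and Cyp3a44 lines mark bases that differ between the pair or have no partner at the ends of the aligned windows. Capitals in the Cyp3a11 line mark CAAAGTCCA, a form of the DR1 element bound by the liver factor HNF4A. Cyp2e1, which oxidises ethanol and other small molecules, was at chr7:140763569-140763818, plus strand, and its capitals mark TATAAA.
Cyp3a16: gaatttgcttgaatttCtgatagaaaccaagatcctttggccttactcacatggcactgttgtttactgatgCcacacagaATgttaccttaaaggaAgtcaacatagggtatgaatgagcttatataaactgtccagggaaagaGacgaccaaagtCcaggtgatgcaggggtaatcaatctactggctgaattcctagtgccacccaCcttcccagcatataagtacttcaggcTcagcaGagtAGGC
Cyp3a44: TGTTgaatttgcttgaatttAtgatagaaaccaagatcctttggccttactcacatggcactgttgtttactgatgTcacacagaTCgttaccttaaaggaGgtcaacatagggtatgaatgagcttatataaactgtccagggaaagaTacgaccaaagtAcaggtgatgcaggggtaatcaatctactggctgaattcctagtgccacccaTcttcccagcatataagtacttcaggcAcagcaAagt
Cyp3a11: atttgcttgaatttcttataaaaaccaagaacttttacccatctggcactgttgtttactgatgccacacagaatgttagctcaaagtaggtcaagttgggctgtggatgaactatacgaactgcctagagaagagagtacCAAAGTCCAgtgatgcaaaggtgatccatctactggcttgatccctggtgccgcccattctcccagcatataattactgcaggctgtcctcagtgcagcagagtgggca
Cyp2e1: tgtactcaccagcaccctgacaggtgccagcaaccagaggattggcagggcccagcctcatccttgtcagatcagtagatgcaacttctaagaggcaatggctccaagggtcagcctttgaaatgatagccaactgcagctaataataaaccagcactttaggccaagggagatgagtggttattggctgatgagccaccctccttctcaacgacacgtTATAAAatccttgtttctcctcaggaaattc

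The Cyp3a16 and Cyp3a44 windows were identical in 236 of 254 aligned columns (92.9%), against 76.6% for Cyp3a16 and Cyp3a11 and 72.1% for Cyp3a44 and Cyp3a11. CAAAGTCCA, searched on both strands, lay from -99 to -91 before the start in Cyp3a16 and from -109 to -101 in Cyp3a11. It was not found in the Cyp3a44 window, where one of the capitals falls inside the matching stretch. The motif was found in 8 of the 48 genes with a window that were higher in WT liver in the comparison below (16.7%), in 1 of the 22 others (4.55%) and in 0.451% of all 27025 genes with a window. The 9 genes were Cyp2c40, Cyp2c65, Cyp2c67, Cyp2c68, Cyp2c69, Cyp2c70, Cyp3a11, Cyp3a16 and Cyp8b1, so that 6 of them belong to the Cyp2c cluster and share ancestry. TATAAA, on either strand, was found in 45.8% of the 48, 18.2% of the 22 and 14.3% of all. In Cyp2e1 it lay from -31 to -26. A match is a string of letters and not a shown binding site.

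Levels between genes are given in TPM, which scales for gene length as well as for depth and was computed from the counts and the exon lengths in the tables. Liver held by far the most P450 RNA. The 91 genes summed to 25670 ± 2717 TPM (SD, n = 3) in WT liver, 4048 ± 54.2 in kidney, 613 ± 12.7 in brain, 261 ± 78.1 in spleen and 124 ± 9.19 in muscle. The heterozygous sums were 25556 ± 1731, 3748 ± 263, 653 ± 11.9, 252 ± 27.5 and 133 ± 5.98 in the same order. At least 1 TPM was reached in WT by 61 genes in liver, 39 in kidney, 24 in brain, 14 in muscle and 14 in spleen. Of the 91 genes, 53 had their highest WT level in liver, 20 in kidney, 12 in brain, 5 in spleen and 1 in muscle. Over 90% of the summed level was in 1 tissue for 51 genes. No minimum level was set for these counts. Cyp11b2 was counted for spleen at a mean of 0.00569 TPM, Cyp2c65 for brain at 0.0150 and Cyp4f40 for kidney at 0.00900. Cyp11b2 is also among the 51. The heterozygous libraries gave the same highest tissue for 86 genes, and the exceptions were Cyp26b1, Cyp11b2, Cyp4f17, Cyp4f40 and Cyp2c65.

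**Figure D1:**
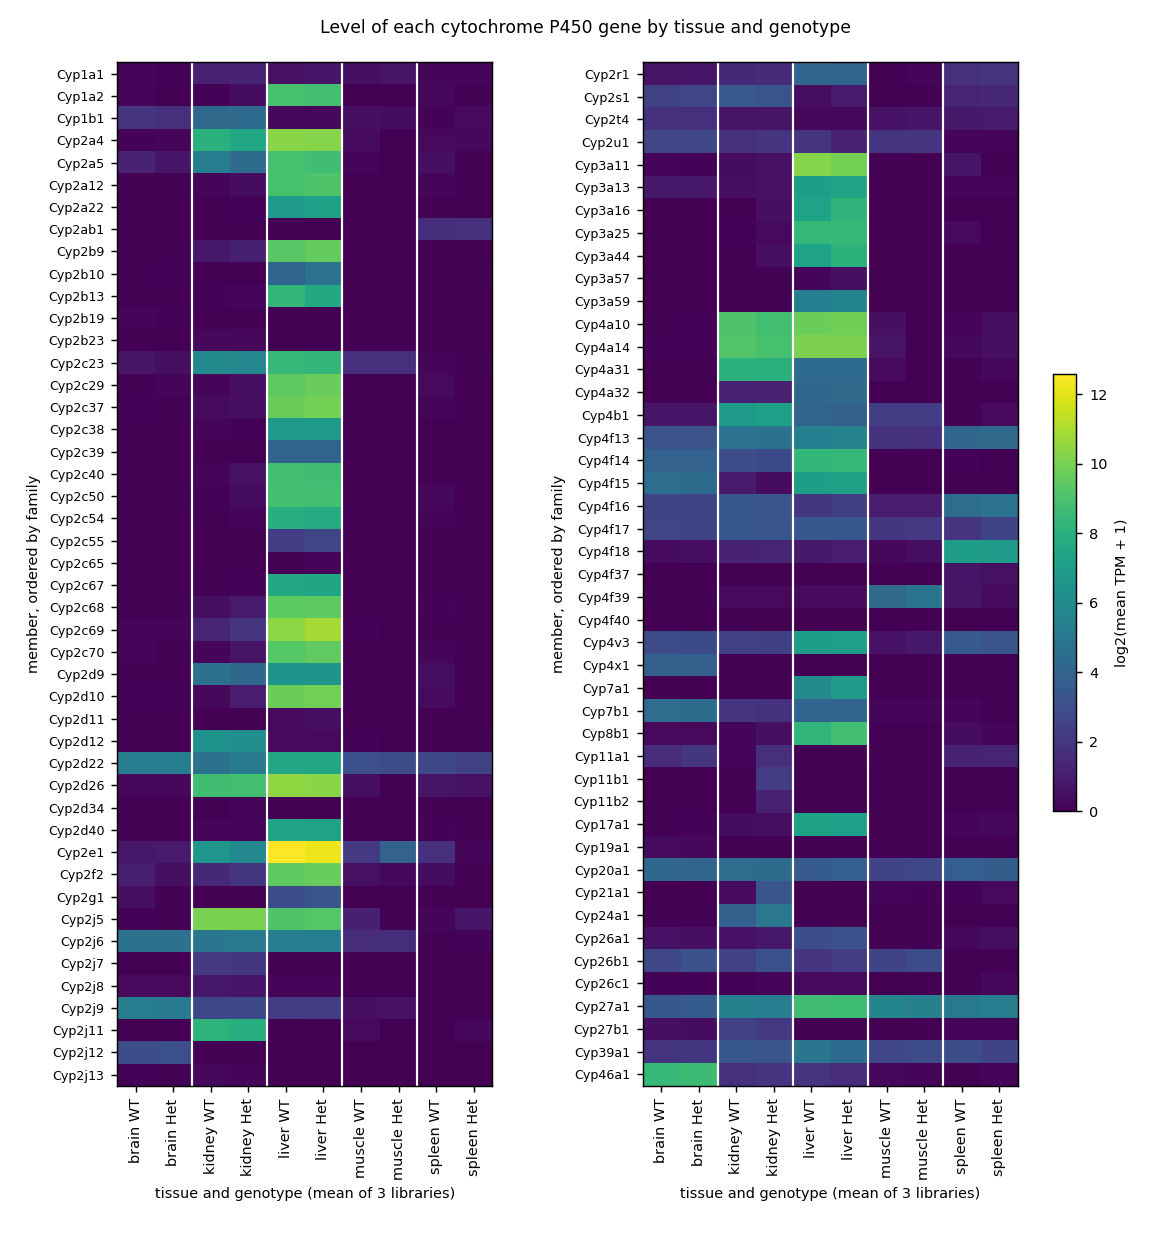
Level of each of the 91 P450 genes by tissue and genotype, as colour on a scale of log2(mean TPM + 1), mean of 3 libraries, ordered by family. Most Cyp2c and Cyp3a genes are bright in liver and dark elsewhere, Cyp4a10, Cyp4a14 and Cyp2j5 are bright in both kidney and liver, and Cyp46a1 is bright in brain.

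Each tissue had its own leading P450 gene. Cyp2e1 (chr7:140763739-140774987) was first in liver, with 6540, 6594 and 5131 TPM in WT and 5618, 4889 and 4054 TPM in heterozygous libraries. It made up 23.7% of the WT liver sum. The groups overlapped. In kidney the leader was Cyp2j5 (chr4:96628773-96664154), which makes epoxides of arachidonic acid. Its levels were 1085, 1050 and 1020 TPM in WT and 1093, 1060 and 963 TPM in heterozygous kidney, and the groups overlapped.

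Brain was led by Cyp46a1 (chr12:108334377-108362231), the neuronal enzyme that hydroxylates cholesterol for export. It had 339, 362 and 334 TPM in WT and 391, 384 and 382 TPM in heterozygous brain, and made up 56.3% of the WT sum. On this scale every heterozygous library was above every WT library, and the test is given below. Cyp27a1 (chr1:74713574-74737892), the mitochondrial sterol hydroxylase, led muscle with 47.5, 53.2 and 54.7 TPM in WT and 40.9, 43.0 and 46.4 TPM in heterozygous libraries. The groups did not overlap on this scale, but in CPM scaled within muscle they did. Spleen was led by Cyp4f18 (chr8:71988482-72009626), which inactivates leukotrienes in leukocytes, with 116, 95.3 and 183 TPM in WT and 122, 117 and 117 TPM in heterozygous libraries. WT spleen library 3 stood above the other 5. The exons of Cyp4f18 overlap those of Zfp961, so its counts are uncertain.

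Families 1 to 3 were taken here and below without Cyp2r1, which was counted with the vitamin D genes. Their 56 members summed to 22051 TPM in WT liver, 2418 in kidney, 130 in brain, 23.4 in muscle and 18.1 in spleen. The Cyp2c subfamily, 14 genes on chromosome 19, had 6003 TPM in liver and 64.2 in kidney, about as much in liver as Cyp2e1 alone. The Cyp3a subfamily, 7 genes on chromosome 5, had 2062 TPM in liver and 0.104 to 1.02 in the other tissues. The 8 Cyp2d genes were split between liver (2751 TPM) and kidney (551 TPM). The 8 Cyp2j genes ran the other way, with 1368 TPM in kidney, 604 in liver and 70.4 in brain. Behind Cyp2e1, WT liver had Cyp2d26 at 1448 ± 135 TPM, Cyp2c69 at 1368 ± 468, Cyp2a4, a testosterone hydroxylase, at 1302 ± 984, and Cyp3a11 at 1240 ± 371. Next were Cyp4a14 at 1074 ± 404, Cyp2d10 at 865 ± 27.3, Cyp2c37 at 862 ± 49.2, Cyp4a10 at 852 ± 326 and Cyp2c29 at 707 ± 51.4. Neighbours in that order lay within each other's SD from Cyp2d26 to Cyp4a14. Of the transcript stretches of Cyp2c40 and Cyp2c69, 44.1% and 36.3% of 100-base windows are shared with another member, so fragments could be lost or swapped between such genes.

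Family 4, with 16 members, summed to 2612 TPM in WT liver, 1525 in kidney, 186 in spleen, 75.8 in brain and 32.1 in muscle. The Cyp4a genes, which hydroxylate the end of fatty acids, gave 1964 TPM in liver and 1350 in kidney. Kidney had Cyp4a14 at 567 ± 4.46 TPM and Cyp4a10 at 526 ± 14.5, and Cyp4a31 at 256 ± 11.2 was a kidney gene, with 92.6% of its summed level there. Cyp2d26 at 413 ± 59.8, Cyp2j11 at 276 ± 7.94, Cyp2a4 at 262 ± 32.5 and Cyp4b1 at 115 ± 25.3 completed the 8 highest kidney genes. The 9 Cyp4f genes were divided among tissues. Cyp4f18 was highest in spleen, and Cyp4f39, which acts on very long fatty acids of the skin barrier, was highest in muscle at 19.7 ± 4.29 TPM. In spleen, Cyp27a1 at 32.4 ± 9.74 TPM, Cyp4f16 at 21.7 and Cyp4f13 at 16.96 followed Cyp4f18.

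The 6 bile acid and sterol genes were shared out between liver and brain. Cyp27a1 was 425 TPM in WT liver and Cyp8b1, which sets the proportion of cholic acid, was 295. Cyp7a1 (chr4:6265612-6275633), the rate-limiting enzyme of bile acid synthesis, had 56.6, 21.3 and 106 TPM in WT and 140, 159 and 34.6 TPM in heterozygous liver. Those values overlapped and spread widely in both genotypes. Cyp7b1, an oxysterol hydroxylase, was 21.6 ± 0.669 TPM in brain and 16.1 ± 3.13 in liver. Of the 6 steroid hormone genes only Cyp17a1 reached 10 TPM in a WT tissue, with 140 TPM in liver. Cyp11a1, the side-chain cleavage enzyme that starts steroid synthesis, was highest in WT brain at 2.04 TPM. Among the vitamin D genes, Cyp2r1, which makes the circulating form, was 16.0 TPM in liver. Cyp24a1, which degrades the hormone, was 13.5 ± 7.76 TPM in kidney and at 0 in all 3 WT liver and spleen libraries. The exons of Cyp24a1 overlap those of Pfdn4. The retinoic acid hydroxylases Cyp26a1 and Cyp26b1 peaked at 6.92 TPM in liver and 5.502 TPM in brain. Cyp20a1, whose substrate is unknown, was measured in every tissue, from 5.01 TPM in muscle to 21.6 in kidney.

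**Figure D2:**
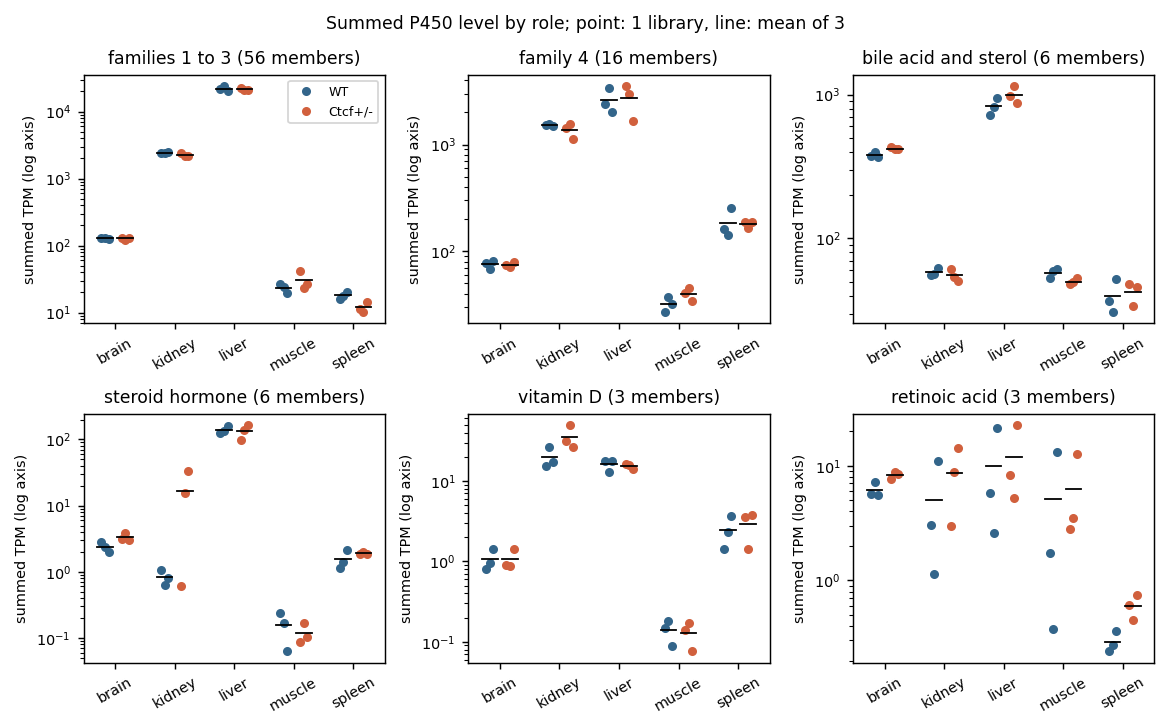
Summed TPM of 6 role groups on log axes, by tissue and genotype (blue WT, orange heterozygous), with a point for each library and a line at the mean of 3. Liver is highest for families 1 to 3 (without Cyp2r1), family 4 and the bile acid and sterol genes. For the steroid hormone genes 2 of the 3 heterozygous kidney libraries stand above WT, and the retinoic acid genes spread widely within both genotypes.

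Each tissue was then tested against the mean of the other 4 in the 15 WT libraries, with the edgeR quasi-likelihood test. A gene was called at a Benjamini-Hochberg adjusted p under 0.05 and a difference of at least 4-fold. The count filter kept 85 of the 91 genes. In liver 61 were higher and 2 lower, against 12.2% and 11.8% of all 22933 genes tested. The 2 lower genes were Cyp27b1, which makes active vitamin D in kidney, with 0 counts in all 3 WT liver libraries, and Cyp11a1, with 1 to 3. A log2 difference is given only where every tissue had more than 3 counts in at least 1 library, since the fitted value of a gene near 0 is not a measure of size. Cyp2e1 was higher in liver by a log2 difference of 11.23 (SE 0.306, adjusted p = 1.51e-13). In kidney 24 were higher and 11 lower (14.9% and 5.52% of all genes). Cyp2j11 was at 276 TPM in kidney and had 0 counts in every WT brain, liver and spleen library (adjusted p = 3.59e-09), and Cyp2j5 was higher in kidney by 8.88. Cyp2j5 was also higher in liver, by 9.08. Liver was above kidney by 0.16 in this test (SE 0.535, adjusted p = 0.827), whose normalisation across tissues differs from that of TPM, where kidney was the higher at 1052 against 559.

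In brain 12 were higher and 43 lower, where all genes gave 24.2% and 11.7%. Cyp46a1 was higher in brain by 8.39 (SE 0.165, adjusted p = 2.15e-14). The brain genes also included Cyp4x1, at 12.9 TPM against at most 0.0126 in the other tissues, and Cyp2j12, at 6.72 TPM against at most 0.00833. Cyp19a1, the aromatase that makes oestrogens, had 10 to 16 counts in WT brain libraries and 0 in every WT library of the other tissues. In spleen 5 were higher and 37 lower (17.8% and 21.4% of all). Of the spleen genes, Cyp4f18 was higher by 7.39 (SE 0.153, adjusted p = 2.02e-14) and Cyp4f16 by 2.07. The others were Cyp4f37, at 0.654 TPM, Cyp2ab1, at 2.16, and Cyp11a1, at 1.26. In muscle 5 were higher and 39 lower (12.8% and 16.5% of all). These were Cyp4f39, at 19.7 TPM against at most 0.609 elsewhere (adjusted p = 6.07e-11), Cyp26b1, higher by 3.24, Cyp2u1, by 2.10, and Cyp2j11 and Cyp21a1, at 0.259 and 0.110 TPM. WT kidney had more of both, at 276 and 0.298 TPM, and the call is against the mean of the log2 levels of the other tissues. Kidney transcripts were present in WT muscle, as given above. Among the heterozygous libraries alone, 3 of these 5 were again called higher in muscle than in the other tissues.

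Liver against kidney, the pair of tissues richest in P450 RNA, gave 51 genes higher in liver and 11 higher in kidney (9.44% and 15.3% of all genes). Cyp2j11 at 276 TPM, Cyp24a1 at 13.5 and Cyp27b1 at 4.35 were among the kidney genes of that pair, and each had 0 counts in all 3 WT liver libraries. The heterozygous libraries, which took no part in these tests, gave the same direction past the same threshold for 60 of the 61 liver genes, 24 of 24 in kidney, 9 of 12 in brain, 5 of 5 in spleen, 3 of 5 in muscle and 51 of 51 for liver over kidney. Of the lower calls the heterozygous libraries gave 2 of 2 in liver, 29 of 37 in spleen, 22 of 39 in muscle, 20 of 43 in brain and 1 of 11 in kidney, and 11 of 11 for the genes lower in liver than in kidney.

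The spread between libraries of 1 genotype was measured as the SD of log2 CPM, pooled over both genotypes, for genes with a mean of at least 1 CPM. The median was 0.118 over 22 P450 genes in brain (jackknife SE 0.0250), beside 0.116 over all genes. It was 0.240 over 41 genes in kidney (SE 0.0363), beside 0.148, and 0.269 over 62 genes in liver (SE 0.0534), beside 0.206. In muscle it was 0.202 over 15 genes (SE 0.0288), beside 0.172, and in spleen 0.224 over 14 (SE 0.0380), beside 0.293. More than 90% of all genes were less variable than 14 of the P450 genes in kidney (34.1%) and 21 in liver (33.9%). In brain 1 gene, in muscle 2 and in spleen 0 passed that mark. The most variable genes in kidney were Cyp21a1 with an SD of 3.58, Cyp11b1 with 3.18 and Cyp11a1 with 2.22. Cyp26b1 came next, and Cyp2c69, a liver gene, followed with 1.10. Adrenal markers were highest in heterozygous kidney libraries 2 and 3 and hepatocyte markers in library 3, as given above. Their part in the kidney SDs was not tested.

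Cyp26b1 (chr6:84571414-84593908), which degrades retinoic acid, was the most variable gene in liver and muscle. In muscle it had 3.90, 0.668 and 30.9 CPM in WT and 6.21, 8.20 and 31.0 CPM in heterozygous libraries, an SD of 2.12. In liver the values were 3.08, 0.417 and 14.8 CPM in WT and 5.42, 3.26 and 17.3 CPM in heterozygous libraries, an SD of 1.98. Kidney gave 5.47, 1.43 and 24.01 CPM in WT and 5.26, 18.0 and 32.3 CPM in heterozygous libraries, an SD of 1.72. Library 3 was the highest of both genotypes in these 3 tissues, and the groups overlapped in each. Within WT muscle the highest library was 46.3 times the lowest. In brain its SD was 0.194. Skeletal muscle markers were also highest in library 3 of both genotypes in kidney, with a sum of 176 CPM in WT and 222 in heterozygous kidney against 9.57 to 12.7 in the other 4, and their part in the kidney values was not tested.

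Liver also had wide spread in its Cyp3a cluster. Cyp3a44 (chr5:145773983-145805874) had 126, 229 and 82.8 CPM in WT and 48.1, 73.8 and 576 CPM in heterozygous liver, an SD of 1.44. Cyp3a16 (chr5:145436309-145469723) had 119, 207 and 62.2 CPM in WT and 97.8, 164 and 390 CPM in heterozygous liver. Cyp3a11 (chr5:145854426-145879964) had 3039, 4173 and 1827 CPM in WT and 2772, 2856 and 937 CPM in heterozygous liver. Heterozygous liver library 3 was therefore the highest of 6 for Cyp3a44 and Cyp3a16 and the lowest of 6 for Cyp3a11. It was also lowest for Cyp4a10, with 370 CPM against 476 to 1282 in the other 5, and for Cyp4a14, with 587 CPM against 802 to 2016. Cyp7a1 had an SD of 1.12 and Cyp26a1 1.09. In brain the 4 most variable genes, Cyp1b1, Cyp11a1, Cyp2s1 and Cyp27a1, had SDs of only 0.219 to 0.288. In spleen Cyp2ab1 led with 0.561, followed by Cyp2e1 with 0.555, and in muscle Cyp2e1 followed Cyp26b1 with 0.9502.

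**Figure D3:**
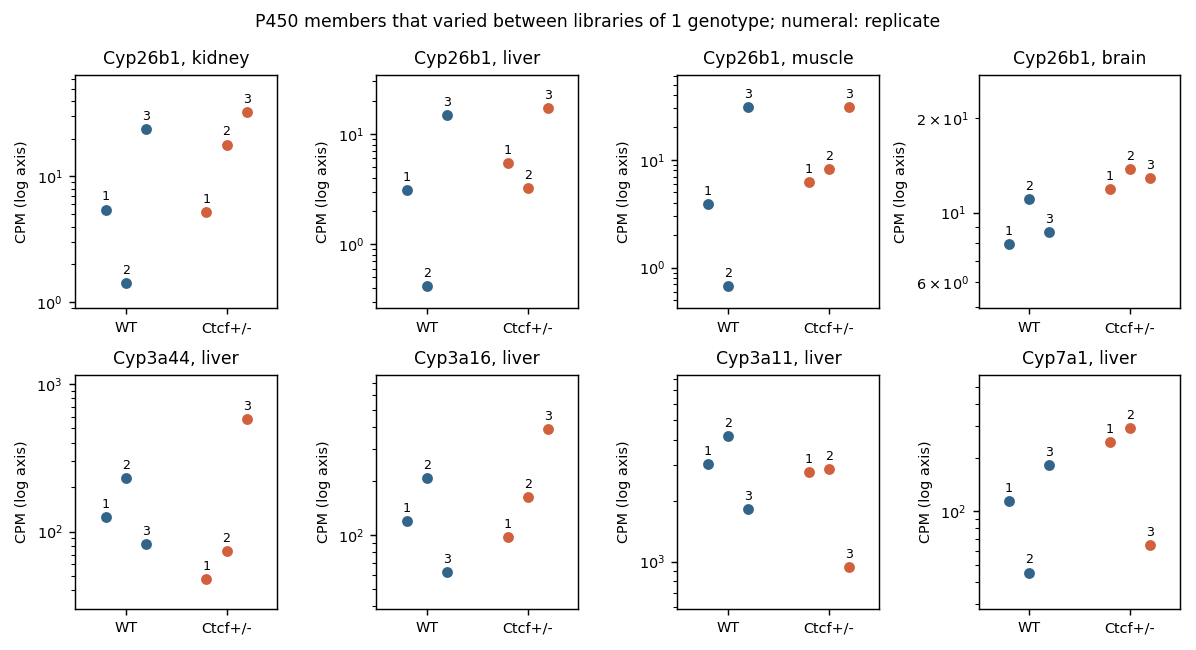
CPM of variable P450 genes in each WT (blue) and heterozygous (orange) library, on log axes, with the replicate number above each point. Cyp26b1 is highest in library 3 of both genotypes in kidney, liver and muscle but not in brain, and heterozygous liver library 3 is highest for Cyp3a44 and Cyp3a16 and lowest for Cyp3a11.

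Genotype was compared in each tissue alone, with 3 WT and 3 heterozygous libraries, the edgeR quasi-likelihood test and Benjamini-Hochberg adjustment over all genes tested. Few genes of any kind were called. In bulk tissue, fewer cells of a type and less RNA per cell cannot be told apart. The 2 P450 genes called were Cyp3a11 and Cyp2e1, both lower in heterozygous spleen, and no P450 gene was called in the other 4 tissues. Median log2 fold changes (heterozygous over WT) of the P450 genes tested were -0.05 in liver, 0.05 in kidney, -0.01 in brain, -0.08 in spleen and -0.00 in muscle, beside -0.01 to 0.00 over all genes. Median absolute changes were 0.16, 0.22, 0.12, 0.73 and 0.34 in that order, beside 0.07 to 0.13 over all genes.

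**Figure D4:**
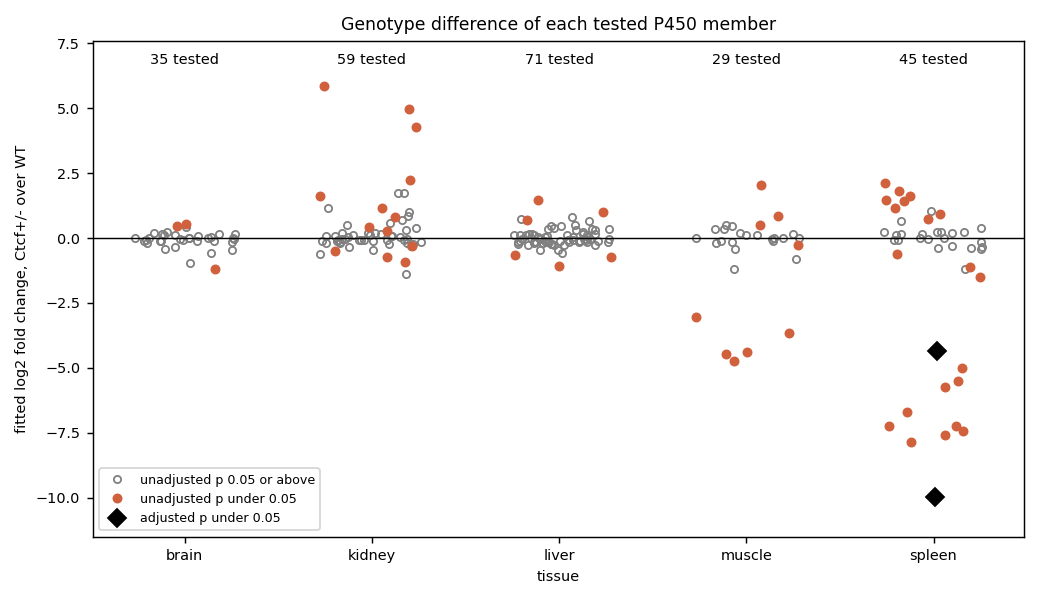
Fitted log2 fold change of each tested P450 gene, heterozygous over WT, in each tissue: open points have an unadjusted p of 0.05 or above, filled points lie under it, and black diamonds are called. The 2 diamonds, both in spleen, are Cyp2e1 and Cyp3a11, and fitted values of genes with no counts in a group are not bounds.

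By role, families 1 to 3 without Cyp2r1 had 2 of 23 tested genes called in spleen. They had 0 of 46 in liver, 0 of 31 in kidney, 0 of 14 in brain and 0 of 13 in muscle. Family 4 had 0 called of 9 to 13 tested in a tissue, the bile acid and sterol genes 0 of 4 to 6, and the steroid hormone, vitamin D and retinoic acid genes 0 of at most 4, 3 and 3. Without adjustment, at a p under 0.05, 11 of the 23 tested genes of families 1 to 3 were lower in heterozygous spleen and 1 higher. In family 4, 5 of 11 genes were higher and 0 lower, and 3 of 4 bile acid and sterol genes were lower and 0 higher. Of all genes tested in spleen, 3.52% had a p under 0.05 in either direction. Hepatocyte markers fell in heterozygous spleen, from 35.1 to 44.9 CPM in WT to 0.140 to 0.344, and kidney markers went from 0.382 to 0.656 CPM to 11.7 to 23.9. A difference between role groups was not tested. In kidney 3 of 4 tested steroid hormone genes were higher, beside 6.44% of all genes under that p in either direction. In liver 1 of 6 bile acid and sterol genes, Cyp39a1, was lower, beside 4.56% of all genes.

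Spleen had 45 P450 genes tested. Cyp3a11 had 1.78, 1.29 and 1.33 CPM in WT spleen and 0 in all 3 heterozygous libraries. A count of 0 in the heterozygous libraries allows up to 0.0413 CPM, which covers counting error only. Cyp3a11 was at least 35.4-fold lower against that floor of 3 counts per library (adjusted p = 0.0259). Cyp2e1 had 2.74, 2.29 and 1.89 CPM in WT and 0.049997, 0.179 and 0.115 CPM in heterozygous spleen. It fell by 4.35 on the log2 scale (SE 0.477, adjusted p = 0.0317). Neither gene's groups overlapped. These 2 genes stood beside 0.242% of all genes called in spleen and 0.183% called lower. Both calls were lost with any 1 library left out except heterozygous library 2, at adjusted p of 0.0707 to 0.240, and also in a fit with the replicate number as a block (0.384 for Cyp3a11 and 0.2804 for Cyp2e1).

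Liver transcripts were lower in the same heterozygous libraries. Of the 8 hepatocyte markers, 7 were called lower in the same test. Alb had 30.5, 23.9 and 24.01 CPM in WT spleen and 0.019999, 0.0689 and 0.104 CPM in heterozygous spleen (adjusted p = 0.0111). At an unadjusted p under 0.05, 14 P450 genes were lower and 8 higher, 48.9% of those tested beside 3.52% of all genes. Of the 14 lower genes, 13 had their highest WT level in liver, beside 26 of the 45 tested, and of the 8 higher genes, 5 had it in kidney, beside 10 of the 45. Of those 5, Cyp2j5 had 0.117, 0.240 and 0.121 CPM in WT and 0.390, 0.896 and 0.836 CPM in heterozygous spleen (log2 fold change 2.14, SE 0.490, adjusted p = 0.405). Kap, a kidney marker, was 0 in WT spleen and 6.89, 14.6 and 14.0 CPM in heterozygous spleen. Of the heterozygous libraries, library 1 was the lowest for Cyp2j5 and Kap, but for Cyp4b1, Cyp21a1 and Cyp4f17 it was the highest, with 0.447, 0.446 and 6.14 TPM. In WT kidney Cyp21a1 reached only 0.298 TPM, and Cyp4f17 was 9.67 TPM there and 9.61 in WT liver. Cyp4a14 and Cyp4a10, also among the 8 higher genes, were highest in liver but had 567 and 526 TPM in WT kidney. Groups did not overlap for 25 of the 45 genes (55.6%, beside 6.64% of all genes). Most of the 14 lower genes, Cyp3a11 among them, had at most 3 counts in every heterozygous library. They passed the count filter only through WT, the group where they were high. The filter therefore partly fixed the 48.9% and 55.6% and the direction of these genes. The part of liver and kidney transcripts in the P450 differences was not tested. Leaving out genes whose level elsewhere was at least 100 times as high, a choice made after seeing the data, gave 0 P450 genes called. That choice removed Cyp3a11 and Cyp2e1 themselves, so the count could not include them and says nothing about their calls.

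Cyp39a1 (chr17:43667425-43751431), an oxysterol hydroxylase of bile acid synthesis, is not a gene of 1 tissue, with 54.0% of its summed WT level in liver. It had 8.75, 8.62 and 10.001 CPM in WT and 6.42, 6.06 and 5.55 CPM in heterozygous spleen, and the groups did not overlap (log2 fold change -0.60, SE 0.167, adjusted p = 0.722). The same gene had the smallest p of the P450 genes in liver. It had 36.4, 51.6 and 37.8 CPM in WT and 26.97, 25.1 and 27.1 CPM in heterozygous liver (log2 fold change -0.67, SE 0.151, adjusted p = 0.514), again without overlap. DESeq2 called it lower in both tissues, at adjusted p of 0.0486 in liver and 0.0453 in spleen, and so did a fit of all 30 libraries, at 0.0318 and 0.0169. In brain, kidney and muscle its log2 fold changes were 0.14, -0.12 and 0.17.

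Liver had 71 P450 genes tested and 0 called, beside 0.0193% of all genes (0.00642% lower), with 3 higher and 3 lower at an unadjusted p under 0.05 (8.45%, beside 4.56% of all). Cyp2b13, of the drug-oxidising Cyp2b subfamily, had 245, 198 and 368 CPM in WT and 149, 191 and 148 CPM in heterozygous liver (log2 fold change -0.73, SE 0.234, adjusted p = 0.858). Cyp2u1, a fatty acid hydroxylase, had 5.70, 3.27 and 10.1 CPM in WT and 3.10, 3.15 and 2.85 CPM in heterozygous liver (-1.07, SE 0.359, adjusted p = 0.916). In these 2 genes every heterozygous library was below every WT library. In all, 4 genes had groups without overlap, each lower in heterozygous liver (beside 8.99% of all genes in either direction). The groups overlapped for the most abundant gene and for the first enzyme of bile acid synthesis. Cyp2e1 had a log2 fold change of -0.44 with a 95% interval of -0.92 to 0.03 (adjusted p = 0.9999). Cyp7a1 had 0.82 (adjusted p = 0.9999).

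Kidney had 59 P450 genes tested and 0 called, beside 0.0211% of all genes (0.0106% lower). With no adjustment, 9 were higher and 4 lower at a p under 0.05 (22.0%, beside 6.44%). Of the 9 higher genes 5, and of the 4 lower genes 4, had their highest WT level in liver, beside 31 of the 59 tested. The summed hepatocyte markers were 202 to 268 CPM in WT and 309, 222 and 507 CPM in heterozygous kidney, and their part in these values was not tested. Cyp2d10, a liver gene, was highest in heterozygous library 3, with 2.46 TPM against 0.0760 to 0.367 in the other 5. Cyp2d22 had the smallest p, with 26.8, 31.4 and 32.5 CPM in WT and 40.2, 45.1 and 37.5 CPM in heterozygous kidney (log2 fold change 0.44, SE 0.107, adjusted p = 0.419). Its groups did not overlap. Cyp2j5, the most abundant, had a log2 fold change of -0.02 with a 95% interval of -0.22 to 0.18. Cyp2e1 had 85.1, 102 and 85.8 CPM in WT and 47.1, 35.2 and 83.3 CPM in heterozygous kidney (-0.72, SE 0.272, adjusted p = 0.682), without overlap, although heterozygous library 3 came close to WT.

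Enzymes of the adrenal cortex appeared in 2 of the heterozygous kidney libraries. Cyp11b1 (chr15:74834125-74841643), which makes corticosterone, had 0.0105, 0.0676 and 0.173 CPM in WT kidney and 0.0211, 6.36 and 8.64 CPM in heterozygous kidney (log2 fold change 5.87, SE 1.54, adjusted p = 0.449). Cyp11a1 (chr9:58006411-58027023) had 0.241, 0.225 and 0.265 CPM in WT and 0.137, 3.95 and 10.01 CPM in heterozygous kidney (4.26, SE 1.14, adjusted p = 0.451). Cyp21a1 (chr17:34801348-34804561), which acts in the same pathway, had 0.441, 0.101 and 0.275 CPM in WT and 0.0106, 7.92 and 18.0 CPM in heterozygous kidney (4.97, SE 1.49, adjusted p = 0.529). In all 3 genes heterozygous libraries 2 and 3 stood above the other 4, and library 1 was within or below the WT range. Cyp11b2, the aldosterone synthase, was not tested: it had 0 counts in WT and 2, 6 and 263 counts in heterozygous libraries.

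Adrenal markers were high in the same libraries. Nr5a1, the factor that defines adrenal cortex and gonad, had 0.0525, 0.0225 and 0 CPM in WT kidney and 0.0317, 0.743 and 1.53 CPM in heterozygous kidney. Star, which delivers cholesterol to mitochondria, had 3.96, 3.95 and 3.99 CPM in WT and 4.51, 13.5 and 18.96 CPM in heterozygous kidney. Cyp17a1, which the mouse adrenal lacks, had 0.388, 0.372 and 0.244 CPM in WT and 0.443, 0.0719 and 0.628 CPM in heterozygous kidney, with overlap. Without heterozygous libraries 2 and 3 the log2 fold changes of Cyp11b1, Cyp11a1 and Cyp21a1 were -1.93, -0.82 and -4.53, a comparison chosen after seeing the data that leaves 1 heterozygous library, with 2 counts of Cyp11b1 and 1 of Cyp21a1. Without heterozygous library 1 all 3 were called higher, at adjusted p of 0.0212, 0.0125 and 0.0282. The exons of these 3 genes overlap other genes, so their counts are uncertain.

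No vitamin D gene was called in kidney. Cyp24a1 had 10.3, 35.4 and 17.8 CPM in WT and 34.2, 68.9 and 37.9 CPM in heterozygous kidney, with overlap (log2 fold change 1.15, SE 0.428, adjusted p = 0.663). Within each replicate number the heterozygous library was the higher. Cyp27b1 had 6.62, 3.20 and 4.602 CPM in WT and 7.14, 2.04 and 1.27 CPM in heterozygous kidney (-0.47, adjusted p = 0.999). Libraries of the same number deviated together in kidney, and with the replicate number as a block 2 P450 genes were called in place of 0: Cyp24a1 with a log2 fold change of 1.25 (adjusted p = 0.0403) and Cyp11b1 with 5.84 (adjusted p = 0.00572). Groups did not overlap for 10 of the 59 genes (16.9%, beside 11.4% of all).

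Muscle had 29 P450 genes tested and 0 called, beside 0.0249% of all genes (0.0125% lower), and 3 higher and 6 lower at an unadjusted p under 0.05 (31.0%, beside 6.45%). The smallest p was that of Cyp4a31, with 0.154, 0.494 and 0.153 CPM in WT and 0, 0.0230 and 0.0107 CPM in heterozygous muscle, at least 7.73-fold lower (adjusted p = 0.259), or 4.44-fold without WT library 2. Cyp2j11 had 0.106, 0.436 and 0.121 CPM in WT and 0, 0 and 0.0214 CPM in heterozygous muscle, at least 6.39-fold lower (adjusted p = 0.338), or 3.27-fold without that library. Both genes had at most 3 counts in every heterozygous library and passed the count filter only through WT. WT library 2 was the highest of 6 for both, as it was for the kidney marker Kap. Kap had 5.83, 46.2 and 5.38 CPM in WT and 0, 0 and 2.64 CPM in heterozygous muscle. Of the 6 lower P450 genes, 3 had their highest WT level in kidney and 3 in liver, beside 9 and 11 of the 29 tested. Of the 3 liver genes, Cyp4a14 and Cyp4a10 also had 567 and 526 TPM in WT kidney, and Cyp27a1 had 43.0. The part of kidney transcripts in the 6 differences was not tested.

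Cyp2e1 ran the other way in muscle. It had 5.49, 3.13 and 1.26 CPM in WT and 22.8, 7.83 and 9.90 CPM in heterozygous muscle (log2 fold change 2.03, SE 0.558, adjusted p = 0.469), without overlap. Adipose markers moved alike: 4 of 4 were higher at an unadjusted p under 0.05, and their sum was 21.2 to 61.5 CPM in WT and 110 to 291 CPM in heterozygous muscle. Adipoq, the adipocyte hormone gene, had 7.90, 7.06 and 2.36 CPM in WT and 36.5, 12.8 and 22.8 CPM in heterozygous muscle. The part of fat tissue in the Cyp2e1 difference was not tested. Cyp4f39 (chr17:32468462-32492479), the 1 gene with its highest WT level in muscle, had 10.8, 16.9 and 14.2 CPM in WT and 19.1, 23.6 and 16.9 CPM in heterozygous muscle (0.51, SE 0.187, adjusted p = 0.654). Groups did not overlap for 11 of the 29 genes (37.9%, beside 12.2% of all).

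**Figure D5:**
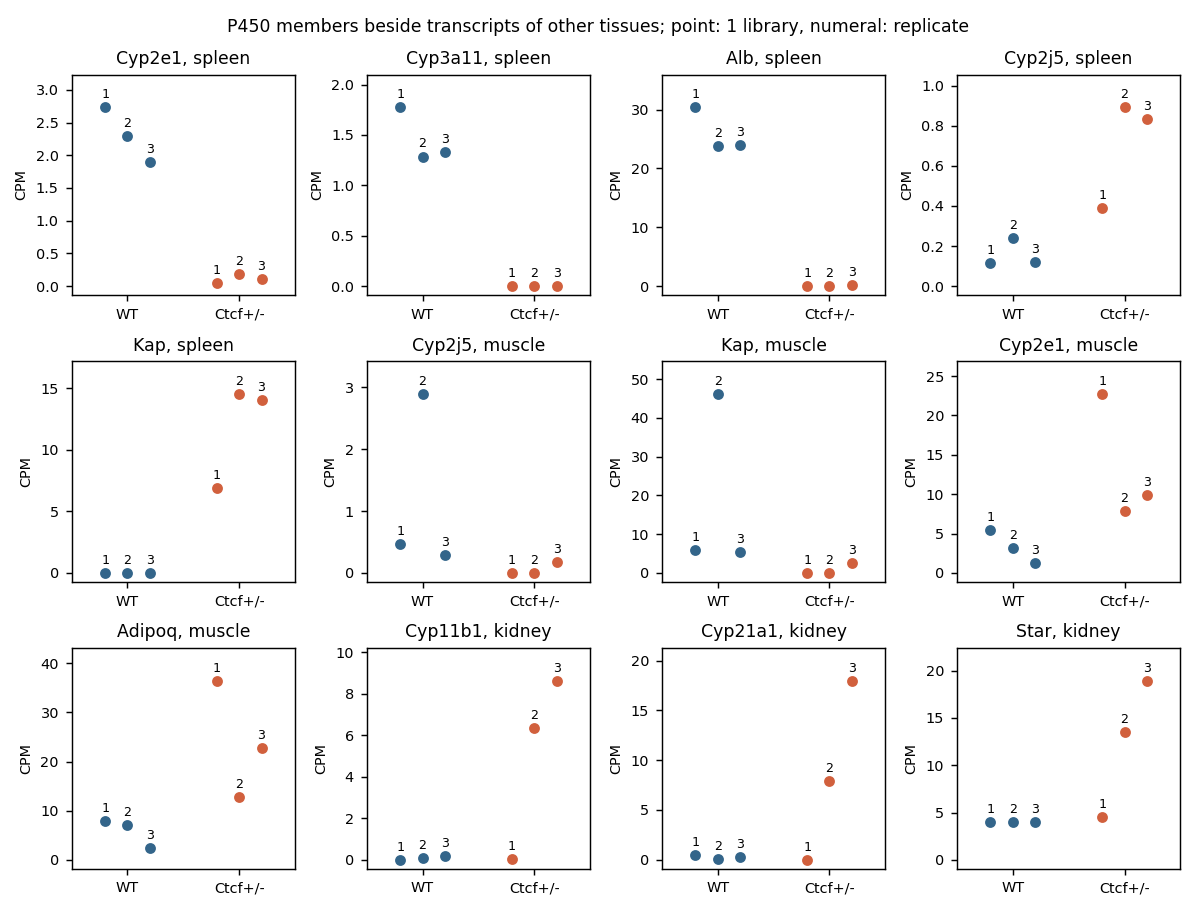
CPM of P450 genes beside marker genes of other tissues in each library, on linear axes, WT in blue and heterozygous in orange, with the replicate number above each point. Cyp2e1 and Cyp3a11 in spleen are low where Alb is low, Cyp2j5 in spleen and muscle is high where Kap is high, and Cyp11b1 and Cyp21a1 in kidney are high where Star is high.

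Brain had 35 P450 genes tested and 0 called, beside 0.0157% of all genes (0.00522% lower), and 2 higher and 1 lower at an unadjusted p under 0.05 (2.96% of all genes). Cyp26b1 had 7.91, 11.05 and 8.66 CPM in WT and 11.9, 13.8 and 12.8 CPM in heterozygous brain (log2 fold change 0.48, SE 0.133, adjusted p = 0.99999). Cyp11a1 had 3.61, 3.07 and 2.50 CPM in WT and 4.34, 5.23 and 3.70 CPM in heterozygous brain (0.53, SE 0.179, adjusted p = 0.99999). Neither gene's groups overlapped. Cyp2f2, known for naphthalene oxidation in lung, had 0.302, 0.853 and 0.888 CPM in WT and 0.219, 0.443 and 0.182 CPM in heterozygous brain (-1.20, SE 0.470, adjusted p = 0.99999), with overlap. Cyp46a1 had 224, 243 and 218 CPM in WT and 263, 253 and 239 CPM in heterozygous brain. Its log2 fold change was 0.14 with a 95% interval of -0.01 to 0.29, and on this scale the groups overlapped. The groups did not overlap for 3 genes, beside 7.83% of all.

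Whether the genotype difference itself depended on the tissue was tested in 1 fit of all 30 libraries, with 87 P450 genes among 24262. It did for 6 genes, beside 0.758% of all genes: Cyp2e1 (adjusted p = 0.000335), Cyp39a1 (0.0155), Cyp2j5 (0.0165), Cyp2j11 (0.0298), Cyp2d26 (0.0328) and Cyp2f2 (0.0356). At an unadjusted p under 0.05 there were 34, beside 6.66% of all genes. For Cyp2e1 the log2 fold changes were -4.35 in spleen, 2.03 in muscle, -0.72 in kidney, -0.44 in liver and 0.22 in brain. Cyp2j5 had 2.14 in spleen, -4.39 in muscle, -0.02 in kidney and 0.03 in liver. Cyp2d26 had its largest change in muscle, with 0.221, 0.552 and 0.0986 CPM in WT and 0.00986, 0 and 0.0428 CPM in heterozygous libraries, where the kidney markers were also lower (-3.97 in the fit of all 30 libraries, adjusted p = 0.00149). Without spleen 0 P450 genes were called, and Cyp2e1 was the 1 gene called in every fit that left out a replicate number of 1 genotype.

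Proteins that P450 enzymes work with were examined the same way. Of 8 redox partner genes, among them the reductase Por, 0 were called in any tissue, and 1 had an unadjusted p under 0.05, Fdxr in muscle (log2 fold change -0.39, adjusted p = 0.657). Of 19 genes for factors that regulate P450 transcription, 0 were called. Each tissue had 13 to 19 of these 19 genes tested. An unadjusted p under 0.05 was reached by 2.96% to 6.45% of all genes, depending on the tissue. Whether the regulators exceeded that share was not tested. Those under 0.05 were Ahrr in brain (-1.16) and Nr0b2, a repressor of bile acid synthesis, in liver (-0.86). The others were Cebpa in muscle (1.29), and Hnf4a in muscle (-3.41) and in spleen (1.42), with log2 fold changes in brackets. Hnf4a is expressed by hepatocytes and by kidney epithelium. Kidney markers were lower in heterozygous muscle and higher in heterozygous spleen, and the hepatocyte marker sum was 1.07 to 16.5 CPM in WT and 0.0690 to 2.27 in heterozygous muscle and far lower in heterozygous spleen. The part of either in Hnf4a was not tested.

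The genes with patterns most like those of 2 reference members were found by Pearson's r of mean log2 CPM over the 10 groups of tissue and genotype, among 23773 genes. Nearest to Cyp7a1 were Mup21 with 0.999, Cfhr3 with 0.998 and 1700061I17Rik with 0.998. Nearest to Cyp2e1 were Copb2 with 0.986, Sod1 with 0.982 and Arcn1 with 0.982. The 10 groups share libraries and tissues, so these values describe likeness only.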

How the data were processed

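RNA-seq libraries of 5 tissues and 2 genotypes were analysed, 3 per group. The deposited values are whole-number fragment counts per gene, which the authors made with featureCounts 1.5.0-p3, per the file headers. The command there counted fragments over exons of Ensembl release 86 for GRCm38, ignored strand, and dropped those that fit several places or genes. Genes with overlapping exons (18 of the 91) and near-identical relatives are therefore uncertain. The submitters' processing notes name FastQC, STAR and DESeq2. Symbols came from gene identifiers for 48349 of 48709 genes.

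Counts were tested with edgeR 4.0.16 in R 4.3.3 (filterByExpr, TMM scaling, quasi-likelihood F-test, Benjamini-Hochberg adjustment over all genes tested, called at an adjusted p under 0.05). Genotype was fitted in the 6 libraries of each tissue, tissue contrasts in the 15 WT libraries and the interaction in all 30. CPM are TMM-scaled within a tissue, and TPM use the exon lengths of the tables. Log2 CPM for the spread used a prior count of 2. Where a group held 3 counts or fewer in each library, a bound against 3 counts is given in place of a fold. Depth was 49.8 M to 131.6 M counts per library, so that 3 counts are 0.0229 to 0.0606 CPM. Replicate pairs differed beyond sampling noise (chi-square per degree of freedom 15.4 to 640), and none was merged. The fits were tested on simulated data. Alternatives were DESeq2 1.42.0, other scalings and filters, a fit of all libraries, the replicate block, and leaving out libraries or tissues.

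Libraries of the same number in WT and heterozygous groups were checked for pairing by correlating deviations from the group means. In kidney the correlations were 0.209, 0.190 and 0.212, and brain gave 0.207, 0.383 and 0.537. Every one was over 0.1, so the numbers were taken to pair libraries there, a pairing that comes from the data and not from the labels. Libraries of different numbers correlated at -0.0390 at most in kidney. Centring on the group means pushes such values below 0 on average where same-number values are positive, so they add nothing to the pairing. In brain, libraries of different numbers reached 0.216, above the 0.207 of number 1, so the pairing there is less certain. Same-number correlations were not all over 0.1 in the other tissues, and in spleen different numbers reached 0.764.

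The genes, role lists, marker lists and tests were chosen with earlier results of these data known. Named genes are the called ones, the 3 with the smallest genotype p per tissue, the highest by level, the most variable, the first 2 of each role list, the genes at the count minimum, and reference and listed genes. Cyp4f17, Cyp4f37, Cyp4x1, Cyp2j12, Cyp3a16, Cyp8b1, Cyp11b2, Cyp19a1, Cyp27b1 and the other genes with CAAAGTCCA were named after their values were seen.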

Additional observations from a re-analysis of the deposited data

Results flagged for a closer look

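The genotype difference depended on the tissue for 6 P450 genes in the interaction test of all 30 libraries (edgeR, adjusted over all genes): Cyp2e1 with an adjusted p of 0.000335, Cyp39a1 with 0.0155, Cyp2j5 with 0.0165, Cyp2j11 with 0.0298, Cyp2d26 with 0.0328 and Cyp2f2 with 0.0356. Cyp2e1 and Cyp2f2 were lower in heterozygous spleen, where the hepatocyte markers were lower, by 4.35 on the log2 scale for Cyp2e1 and at least 6.75-fold for Cyp2f2. Cyp2j5 and Cyp2j11 were lower in heterozygous muscle, and Cyp2j5 was higher in heterozygous spleen, as were the kidney markers. Cyp2d26 was lower in heterozygous muscle (log2 fold change -3.97 in the fit of all 30 libraries, adjusted p = 0.00149), where the kidney markers were lower, and had log2 fold changes of 0.05 in kidney, -0.27 in liver and -0.39 in spleen. Cyp39a1 had -0.67 in liver and -0.60 in spleen against -0.12 to 0.17 in the other 3 tissues. Of these single-tissue differences, only that of Cyp2e1 in spleen was called in the fit of its tissue alone. The part of other organs' transcripts in these values was not tested.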

How the results depend on the processing

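Of the counts and medians compared, 177 alternatives stayed at or near the main value and 45 moved away from it. Near meant within a set fold for a count and within the jackknife SE for a median. An interaction count of 7 against 6, for example, was taken as near. Of single-gene fold changes, 276 kept direction and side of the threshold, 27 newly passed it, 12 no longer did and 3 reversed. P450 genes called for genotype, 0 in kidney, liver and muscle and 2 in spleen, became 1 in liver, 3 in muscle and 13 in spleen with DESeq2. They became 10 in spleen, 7 in muscle, 1 in kidney and 1 in liver in a fit of all 30 libraries, 1 in muscle and 8 in spleen with no filter on low counts, and 0 in spleen with at least 10 counts in every library. With the replicate number as a block they were 2 in kidney, 2 in muscle and 0 in spleen. In muscle the 2 were Cyp4a31 and Cyp2e1, although the numbers were taken to pair libraries only in kidney and brain. The block changed no call in brain or liver and called 7 genes in the interaction. Leaving out 1 library gave 0 to 3 in kidney and 0 to 2 in spleen. Kidney gave Cyp11a1, Cyp11b1 and Cyp21a1 without heterozygous library 1, and Cyp2e1 without heterozygous library 3. Leaving out genes whose level elsewhere was at least 100 times as high, chosen after seeing the data, gave 0 in spleen. Cyp3a11 and Cyp2e1 were among the genes removed, so that 0 is no test of their calls. The 6 interaction genes became 26 with DESeq2, 0 without spleen, 0 without spleen and muscle (chosen after seeing the data) and 1 to 6 without a replicate. Without heterozygous kidney libraries 2 and 3, Cyp11b1 was -1.93, Cyp11a1 -0.82 and Cyp21a1 -4.53, with the lone library assumed to vary like the rest. The 5 genes higher in WT muscle were 3 in heterozygous libraries, 3 with total counts, 8 at a 2-fold minimum and 10 with no minimum. The median spread moved to 0.163 in brain, 0.358 in spleen, 0.359 in kidney and 0.269 in muscle with genes from 0.2 CPM, and to 0.189 in kidney and 0.181 in spleen from 5 CPM. It was 0.161 in WT kidney, 0.213 in heterozygous liver, 0.153 in heterozygous muscle, 0.142 in heterozygous spleen and 0.326 in spleen with total counts, and 0.197 to 0.251 in kidney without 1 library. Apart from those that used other genes or samples, the cause was not tested.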

Other observations

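Liver P450 genes in WT spleen were compared with what the liver level of each gene, scaled to Alb, would give. Over 42 genes the median of observed over scaled counts was 1.85, and 25 lay within 3-fold. The 42 included genes at a similar level in heterozygous spleen, such as Cyp4f13, with 6172 counts where scaling gave 3.14. Cyp27a1 was another, with 7710 counts where scaling gave 20.7. Cyp2c69 had 1 count where scaling gave 54.8, Cyp2c40 had 2 where it gave 19.7, Cyp2b9 6 where it gave 26.8 and Cyp2b13 0 where it gave 13.3. Cyp2d9 went the other way, with 71 counts where scaling gave 3.30. The Y-linked gene Ddx3y was 0.0729, 0.0961 and 0.0302 CPM in WT spleen and 0 in heterozygous spleen. With Xist and the Y-linked Eif2s3y, Kdm5d and Uty it made a list of 5 sex genes. Their sum was 464 to 898 CPM in WT spleen and 512 to 1230 CPM in heterozygous spleen. Above 0 were 5 of them in WT and 2 in heterozygous spleen, and 2 and 1 in liver. In brain, kidney and muscle 1 was above 0 in each genotype, so most of the Y-linked genes had no counts there. The sum over both genotypes was 290 to 564 CPM in brain, 313 to 552 in kidney and 62.4 to 114 in muscle. The bearing of sex on the P450 levels was not tested. In heterozygous kidney library 3 the Alb level was 218 CPM against 8.79 to 41.3 in the other 5. There the same scaling gave a median of 1.83 with 27 of 42 genes within 3-fold, and Cyp2c69 had 507 counts where it gave 229. That set included genes high in all kidney libraries, such as Cyp2j5, with 101537 counts where scaling gave 88.9. Kidney P450 genes in heterozygous spleen, scaled to Kap, gave a median of 1.12 over 11 genes, with 10 within 3-fold. These genes were chosen after their values were seen.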
